A study of Zea mays with 4 samples.

Results

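Mature silks and mature pollen, the female and the male tissue that meet at pollination, were compared for their microRNAs (miRNAs) in the maize inbred line B73. Every distinct mature miRNA sequence with at least 10 reads in mature silks (MS) or mature pollen (MP) was taken, which gave 86 of the 181 distinct sequences of the deposited table, 40 of 72 known ones and 46 of 109 predicted by the authors from hairpins. MS were unpollinated silks about 5 cm out of the husk, and MP was pollen shaken fresh from tassels. Pollinated silks (PS), taken 30 min after pollination and so still carrying pollen, and germinated pollen (GP), kept 30 min in germination medium, served as a further pair. All plants were greenhouse-grown B73 with no mutation or other treatment. There was 1 library per tissue, so no difference had a replicate check, and a test on reads compared these libraries, not the tissues. The libraries had 5775303 clean reads in MS and 3638941 in MP, and 5205129 in PS and 10575042 in GP. The counts hold no mRNA, so marker genes of silk and pollen were not analysed here.

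A plant miRNA is cut from the stem of a folded precursor by DICER-LIKE1 and loaded into ARGONAUTE1, where it guides cleavage or translational repression of mRNAs that pair with it almost fully. Most conserved plant families target transcription factors or enzymes of nutrient use, and several of them set the timing of flowering, organ shape and auxin response. Silks are the long stigma and style of the maize flower, a growing tissue of many cell types, while a pollen grain holds a vegetative cell and a pair of sperm cells.

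A joined name such as miR164a/b/c/d/g lists the copies that share 1 sequence, with a dash for a run of letters. The sequences on which the results turn are shown first, as the table writes them (T for U, 5′ to 3′), with bases 2 to 8, the seed, in capitals. The first set shows miR168a/b, the most abundant miRNA of both tissues, and known miRNAs of several families with large ratios in favour of silk.
miR168a/b: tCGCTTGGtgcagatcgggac
miR164a/b/c/d/g: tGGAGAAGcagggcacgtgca
miR827: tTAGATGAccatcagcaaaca
miR169c/r: cAGCCAAGgatgacttgccgg
miR171d/e/i/j: tGATTGAGccgtgccaatatc
miR167e/f/g/h/i/j: tGAAGCTGccagcatgatctg
miR393b: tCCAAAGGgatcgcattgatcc
miR319a/b/c/d: tTGGACTGaagggtgctccc

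The second set shows relatives with unlike ratios between the tissues, among them the sequences that came next in abundance, miR159a/b/f/j/k in silk and miR156a-i/l in pollen. From the 5′ end, miR159h/i differs from miR159a/b/f/j/k by T7G, inside the seed, and miR156k and miR156a-i/l differ by C14T. miR396c/d has an extra G at position 9 that miR396a/b lacks, just after a shared seed.
miR159a/b/f/j/k: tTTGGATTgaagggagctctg
miR159h/i: tTTGGAGTgaagggagctctg
miR396c/d: tTCCACAGgctttcttgaactg
miR396a/b: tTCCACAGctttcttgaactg
miR156k: tGACAGAAgagagcgagcac
miR156a-i/l: tGACAGAAgagagtgagcac

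The last set shows predicted miRNAs, named by the hairpin number and arm that the table gives them. They are the most abundant one of each tissue, the leading 24-nt ones in either direction, the arms of hairpin 50, and a pair that shares its seed with a known family (44-5p with miR159a/b/f/j/k, 33-5p with miR169).
11-3p: cGGATGGGtgctgcgcggtggt
56-5p: tGAATGGTggagcttggagcc
53-3p: aCCCGTGCtgcaagctttatggtt
8-3p: tTGGGAAAataggaatcacttggg
50-5p: aATACACAtgggttgagggag
50-3p: tTCAACCCatgtgtattgaga
44-5p: tTTGGATTgaattggttggtg
33-5p: tAGCCAAGcatgatttgcccgt

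Known miRNAs took up far more of the silk library than of the pollen library. With each distinct sequence entered a single time, they made up 3.22% of the clean reads of MS (186020 reads, exact 95% interval 3.21% to 3.24%) and 0.546% of those of MP (19853 reads, 0.538% to 0.553%). The share was 5.90-fold higher in MS (5.82 to 5.99). Overlapping sequences such as miR166a and miR166b-i were each entered, so reads can be counted more than once in both shares. The predicted miRNAs had 2476 reads in MS and 937 in MP, a share 1.66-fold higher in MS (1.54 to 1.80). Since the known miRNAs as a whole differed this much, each sequence was scaled both to clean reads (as TPM, reads per 1000000 clean reads) and to the reads of all known miRNAs in its library. The second scale lowers every log2 ratio of MS to MP by 2.56. A known sequence with a log2 ratio of 2.56 on clean reads was thus the same share of the known miRNAs in both tissues. Predicted sequences are not part of the known reads and were only scaled to them. Bulk small RNA cannot tell fewer cells of a type from less of a miRNA per cell. Intervals cover counting error only, as PCR copies are not independent molecules.

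On clean reads most known miRNAs were higher in silk, while predicted ones were called in both directions. Most of these called predicted sequences reached the minimum of reads in 1 library alone. A sequence was called at an adjusted p under 0.01 in a 2-sided Fisher's exact test of its reads (Benjamini-Hochberg over the 86) and a log2 ratio over 1.5 in size, with 0 reads set to a floor of 3 reads (0.519 TPM in MS and 0.824 TPM in MP). For the known-read scale the same test was run with the clean reads of MS multiplied by 5.90 and those of MP unchanged. It was not a test within the known reads. On clean reads 47 of the 86 sequences were higher in MS (54.7%) and 18 lower (20.9%). Of the 40 known ones 32 were higher, 1 was lower and 7 did not pass, and of the 46 predicted ones 15 were higher, 17 were lower and 14 did not pass. Scaled to known reads, 17 of the 86 were higher (19.8%) and 29 lower (33.7%). Among the known 15 were higher and 4 lower, and among the predicted 2 were higher and 25 lower. The median log2 ratio over all 86 was 2.33 on clean reads and -0.23 on known reads, and over the known ones alone it was 3.55 and 0.99. Under every scaling tried, 13 known and 2 predicted sequences were higher and 1 known and 17 predicted sequences were lower.

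**Figure D1:**
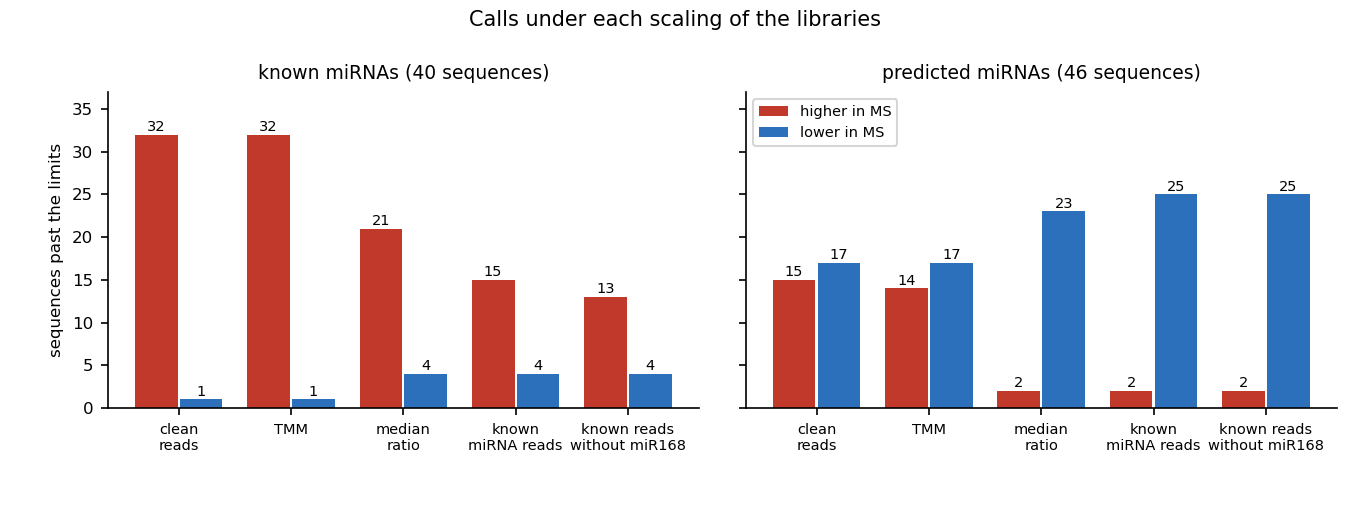
Number of sequences past the limits (vertical axis) among 40 known miRNAs on the left and 46 predicted miRNAs on the right, under each scaling of the libraries (horizontal axis), with red bars for sequences higher in MS and blue bars for sequences lower in MS. The known miRNAs go from 32 higher and 1 lower on clean reads to 15 higher and 4 lower on known miRNA reads, and the predicted ones from 15 higher and 17 lower to 2 higher and 25 lower.

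A sequence that reached the minimum in MS alone could hardly be lower there, so the sequences were also counted by the library that let them in. In both libraries 23 sequences had at least 10 reads, and 11 of these were higher in MS and 3 lower. All 11 were among the 15 known ones of that set, whose median log2 ratio was 3.21. Of the 8 predicted ones 0 were higher and 2 lower. A further 25 known and 23 predicted sequences passed through MS alone, and 15 sequences, each of them predicted, passed through MP alone. All 15 predicted sequences called higher had passed through MS alone, and 15 of the 17 called lower through MP alone. No reads were found in MP for 24 of the 86 sequences and in MS for 4. Such ratios are bounds at the floor of 3 reads, not exact limits.

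The most abundant known miRNAs of the tissues were partly the same, and silk spread its reads over more of them. miR168a/b came first in both, with 45.5% of known reads in MS (exact 95% interval 45.3% to 45.8%) and 50.1% in MP (49.4% to 50.8%). In MS it was followed by miR159a/b/f/j/k at 16.4%, miR164a/b/c/d/g at 15.8%, miR156a-i/l at 4.34% and miR396c/d at 3.43%. In MP it was followed by miR156a-i/l at 29.9%, miR159a/b/f/j/k at 10.4%, miR396a/b at 3.49% and miR159h/i at 2.06%. The leading 5 held 85.5% of known reads in MS and 95.9% in MP. miR164a/b/c/d/g ranked 3 in MS and 20 in MP, and miR159h/i ranked 28 in MS and 5 in MP.

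The miRNAs of the silencing machinery were higher in silk on clean reads, and neither passed the limits as a share of known reads. miR168a/b, which targets the ARGONAUTE1 gene, had 84729 reads (14671 TPM) in MS against 9940 reads (2732 TPM) in MP. It was 5.37-fold higher in MS (exact 95% interval 5.26 to 5.48), with a log2 ratio of 2.43 on clean reads that turned to -0.14 on known reads. miR162, which targets the DICER-LIKE1 gene, had 506 reads (87.6 TPM) in MS against 27 reads (7.42 TPM) in MP, 11.8-fold higher in MS (8.02 to 18.1), with a log2 ratio of 3.56 on clean reads that did not pass on known reads.

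Of the flowering and phase change miRNAs, the leading miR156 sequence stood near the same TPM in both tissues. miR156 keeps plants juvenile by acting on SPL transcription factors, and its predicted targets here include tga1, ub2 and ub3, genes of maize ear and tassel form. miR156a-i/l had 8064 reads (1396 TPM) in MS against 5931 reads (1630 TPM) in MP. Its log2 ratio was -0.22 on clean reads (exact 95% interval -0.27 to -0.17), within the limits, but -2.78 on known reads, where it was lower in MS (Fisher's exact test). miR156k had 87 reads in MS against 10 in MP and was higher on clean reads, with a log2 ratio of 2.45 that turned to -0.11 on known reads. miR172a/b/c/d, which targets AP2-like genes and acts against miR156 in phase change, had 34 reads in MS and 0 in MP. At the floor of 3 reads it was 7.14-fold higher in MS on clean reads, which is not an exact limit. miR529, which also targets SPL genes, had at most 2 reads in MS and 1 in MP and was no member.

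The MYB regulator miR159 held the only known sequence that was lower in silk on clean reads. miR159 acts on GAMYB-like genes, which in cereals are known from the aleurone and the anther. miR159a/b/f/j/k had 30449 reads (5272 TPM) in MS against 2067 reads (568 TPM) in MP, 9.28-fold higher in MS (exact 95% interval 8.88 to 9.71). miR159h/i had 44 reads (7.62 TPM) in MS against 408 reads (112 TPM) in MP, 14.7-fold lower in MS (10.8 to 20.6; log2 ratio -3.88; Fisher's exact test, adjusted p = 3.5e-116). Their log2 ratios on known reads were 0.65 and -6.44, so only miR159h/i passed the limits on both scales. The related miR319a/b/c/d, which targets TCP genes of leaf growth, had 135 reads in MS against 1 in MP, with log2 ratios of 6.41 and 3.85 on the 2 scales.

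**Figure D2:**
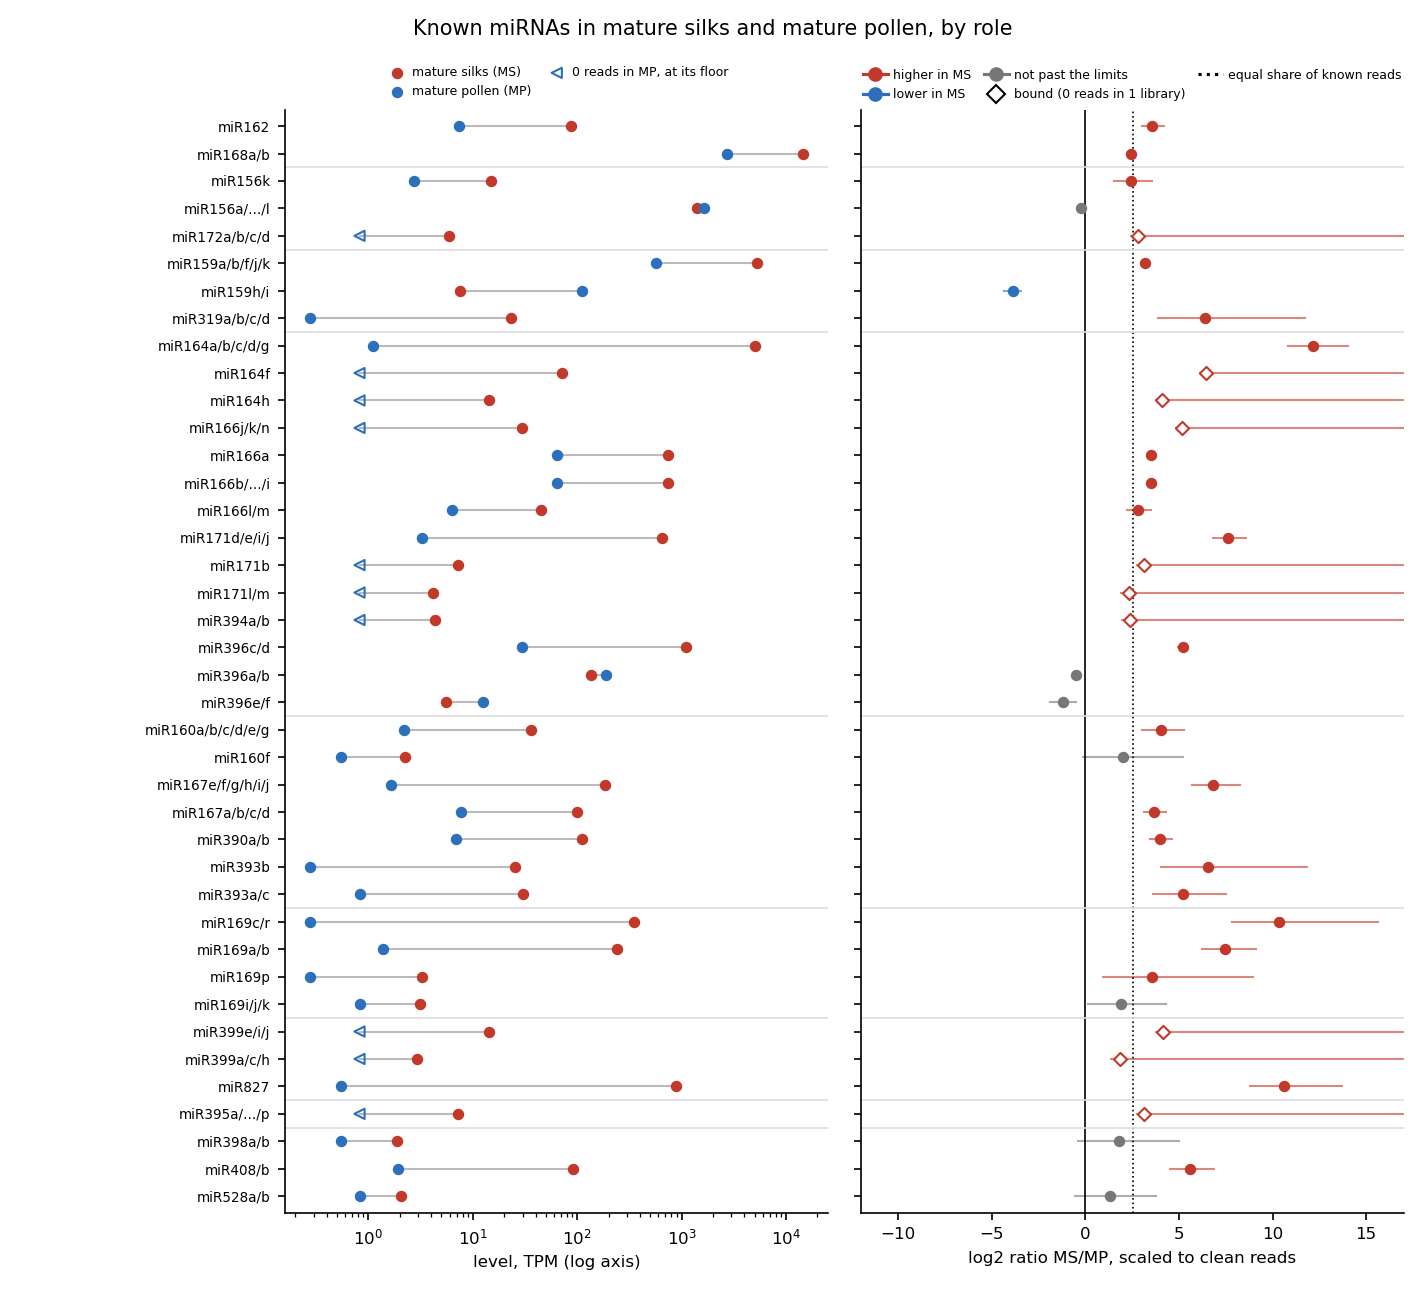
Levels and ratios of the 40 known miRNAs, 1 row each, grouped by role and split by grey lines. The left panel gives the TPM on a log axis in MS (red) and MP (blue), with open triangles at the floor of 3 reads where MP had 0 reads, and the right panel gives the log2 ratio of MS to MP on clean reads with its exact 95% interval, coloured by call, with a dotted line at 2.56 where the share of known reads is equal. miR164a/b/c/d/g lies farthest to the right at 12.17, and miR159h/i lies farthest to the left at -3.88.

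Meristem and organ growth families held the largest difference of the comparison. miR164 limits NAC genes of organ boundaries. miR164a/b/c/d/g had 29333 reads (5079 TPM) in MS against 4 reads (1.10 TPM) in MP, 4621-fold higher in MS (exact 95% interval 1804 to 16959.5). miR164f and miR164h differ from it at the last bases (A21T, and C20T with A21G) and had 412 and 82 reads in MS and 0 in MP. The 3 sequences share the first 19 bases, so some of their reads may be the same. All 3 were higher on both scales, with log2 ratios of 12.17, 6.44 and 4.11 on clean reads and 9.61, 3.87 and 1.54 on known reads, the last pair in each being bounds.

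miR166, which targets HD-ZIP III genes of leaf polarity, and miR171, which acts on GRAS genes of the meristem, were higher in silk by less. miR166a had 4283 reads (742 TPM) in MS against 233 reads (64.0 TPM) in MP, 11.6-fold higher in MS (exact 95% interval 10.1 to 13.3), and miR166b-i, the same sequence without its last base, had 4276 and 233. Their log2 ratio of 3.53 became 0.97 on known reads, within the limits. miR166l/m had 261 reads in MS against 23 in MP, though its names, which share a sequence, were given 96 to 261 reads in MS. miR166j/k/n had 170 reads in MS and 0 in MP and passed on both scales. miR171d/e/i/j had 3766 reads (652 TPM) in MS against 12 reads (3.30 TPM) in MP, 198-fold higher in MS (113 to 383), with log2 ratios of 7.63 and 5.07. miR171b and miR171l/m had 42 and 24 reads in MS and 0 in MP, and did not pass on known reads.

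The miR396 family, which restrains growth-regulating factor (GRF) genes, was divided. miR396c/d had 6380 reads (1105 TPM) in MS against 109 reads (30.0 TPM) in MP, 36.9-fold higher in MS (exact 95% interval 30.5 to 45.0). miR396a/b had 779 reads (135 TPM) in MS against 693 reads (190 TPM) in MP, a log2 ratio of -0.50 (-0.65 to -0.35). miR396e/f, which differs from it by G21T, had 32 reads in MS against 46 in MP, a log2 ratio of -1.19. On known reads miR396c/d was still higher in MS, at 2.64, and the others were lower, at -3.06 and -3.75. miR394a/b, which targets an F-box gene of the shoot meristem in Arabidopsis, had 25 reads in MS and 0 in MP. Of the 14 sequences in these 5 families 12 were higher and none lower on clean reads, with a median log2 ratio of 3.53, near the 32 of 40 and 3.55 of all known sequences. On known reads 6 were higher and 2 lower, beside 15 and 4 of all 40.

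Of the auxin miRNAs 6 of 7 were higher in silk on clean reads, with a median log2 ratio of 4.03, near the 32 of 40 and 3.55 of all known sequences. miR167 targets the auxin response factors ARF6 and ARF8. Its sequence miR167e/f/g/h/i/j gave the largest difference among them when the name with the most reads was taken (log2 ratio 6.80). With the mean over its names the log2 ratio was 6.41, below the 6.53 of miR393b. miR167e/f/g/h/i/j had 1063 reads (184 TPM) in MS against 6 reads (1.65 TPM) in MP, 112-fold higher in MS (exact 95% interval 51.1 to 305). Its names had 644 to 1063 reads in MS. It shares its first 20 bases with miR167a/b/c/d, which had 574 reads in MS against 28 in MP (log2 ratio 3.69) and did not pass on known reads. miR393, which targets the TIR1-type auxin receptors, had 147 reads for miR393b and 176 for miR393a/c in MS, against 1 and 3 in MP. miR390a/b, which starts the ta-siRNAs that silence ARF3-type genes, had 641 reads (111 TPM) in MS against 25 reads (6.87 TPM) in MP, 16.2-fold higher in MS (10.8 to 25.2). miR160a/b/c/d/e/g, which targets ARF10-type genes, had 207 reads in MS against 8 in MP, and miR160f, with 13 against 2, did not pass (log2 ratio 2.03, interval -0.11 to 5.22). As shares of known reads 3 of the 7 were higher, miR167e/f/g/h/i/j at 4.24, miR393b at 3.97 and miR393a/c at 2.65, and none was lower.

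miR169, which targets NF-YA subunits of a CCAAT-binding factor, was among the largest differences. miR169c/r had 2033 reads (352 TPM) in MS against 1 read (0.275 TPM) in MP, 1281-fold higher in MS with a wide interval (exact 95%, 230 to 50620.0). miR169a/b, which differs by its last base, had 1407 reads in MS against 5 in MP, with log2 ratios of 7.47 and 4.91 on the 2 scales. miR169p, with 19 reads in MS against 1 in MP, was higher on clean reads alone, and miR169i/j/k, with 18 against 3, did not pass on either scale (log2 ratios 1.92 and -0.64).

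The nutrient miRNAs were led by miR827, a miRNA of phosphate starvation that acts on SPX-domain genes in rice. miR827 had 5057 reads (876 TPM) in MS against 2 reads (0.550 TPM) in MP, 1593-fold higher in MS (exact 95% interval 441 to 13159), and its log2 ratio was 10.64 on clean reads and 8.08 on known reads. miR399, which lowers the ubiquitin-conjugating enzyme PHO2 and so raises phosphate uptake, had 83 reads for miR399e/i/j and 17 for miR399a/c/h in MS and 0 in MP. The log2 bound of miR399a/c/h was 1.84 on clean reads and -0.73 on known reads. The sulfate miRNA miR395a/b/d/e/f/g/h/i/j/n/p, which targets ATP sulfurylase genes, had 42 reads in MS and 0 in MP. At the floor of 3 reads it was 8.82-fold higher in MS on clean reads (exact 95% lower limit 6.86).

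Of the copper miRNAs, which spare copper by lowering copper proteins, 1 of 3 was called higher on clean reads, beside 32 of all 40 known sequences. All 3 reached the minimum through MS alone. miR408/b, which targets plantacyanin and laccase genes, had 529 reads (91.6 TPM) in MS against 7 reads (1.92 TPM) in MP, 47.6-fold higher in MS (exact 95% interval 22.9 to 119), and it passed on both scales. miR398a/b had 11 reads in MS against 2 in MP and miR528a/b had 12 against 3. Their intervals on the log2 scale, -0.40 to 5.01 and -0.56 to 3.80, included 0. miR397 had 0 reads in both libraries. The triggers of phased siRNAs in anthers, miR2118 and miR2275, had at most 0 and 2 reads per sequence in MS and 4 and 1 in MP, and they and miR1432 were no members. Summed over its sequences miR2118 had 0 reads in MS and 7 in MP, a log2 bound of -1.89 on clean reads, which was not tested.

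By family, 20 of the 22 with a member had at least 1 sequence higher in MS on clean reads, all but miR398 and miR528, and in 15 every member was higher. As shares of known reads 11 families had a higher sequence. Those with a lower sequence on that scale were miR156, miR159 and miR396.

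Within a family the balance of sequences does not depend on how the libraries are scaled, and it differed most for miR396 and miR159. Of sequences that share a run of at least 18 bases only the one with the most reads was kept, and the reads of the others were left out. Among those left out were miR396e/f (32 reads in MS, 46 in MP), miR166b-i and miR166l/m (261 and 23). Each family's leading sequence was then tested against its other kept sequences. This was done in the 5 families with at least 10 kept reads in each library and more than 1 sequence left. miR396c/d was 89.1% of the family's 7159 kept reads in MS (exact 95% interval 88.4% to 89.8%) and 13.6% of its 802 in MP (11.3% to 16.2%). miR159a/b/f/j/k was 99.9% of 30493 reads in MS and 83.5% of 2475 reads in MP (82.0% to 85.0%), where miR159h/i made up the other 16.5%. Both were past an adjusted p of 0.01 in Fisher's exact test. The remaining shifts were smaller. The leading miR156 sequence was 98.9% in MS and 99.8% in MP (Fisher's exact test, adjusted p = 2.11e-10). miR166a was 96.2% of the kept reads in MS and 100% in MP (Fisher's exact test, adjusted p = 0.000288), where miR166l/m with its 23 reads was not counted. With all overlapping sequences counted, the miR166 family no longer passed, while miR167 and miR169 did. miR171d/e/i/j held 98.0% of reads in MS and all 12 in MP, and did not pass (adjusted p = 1).

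**Figure D3:**
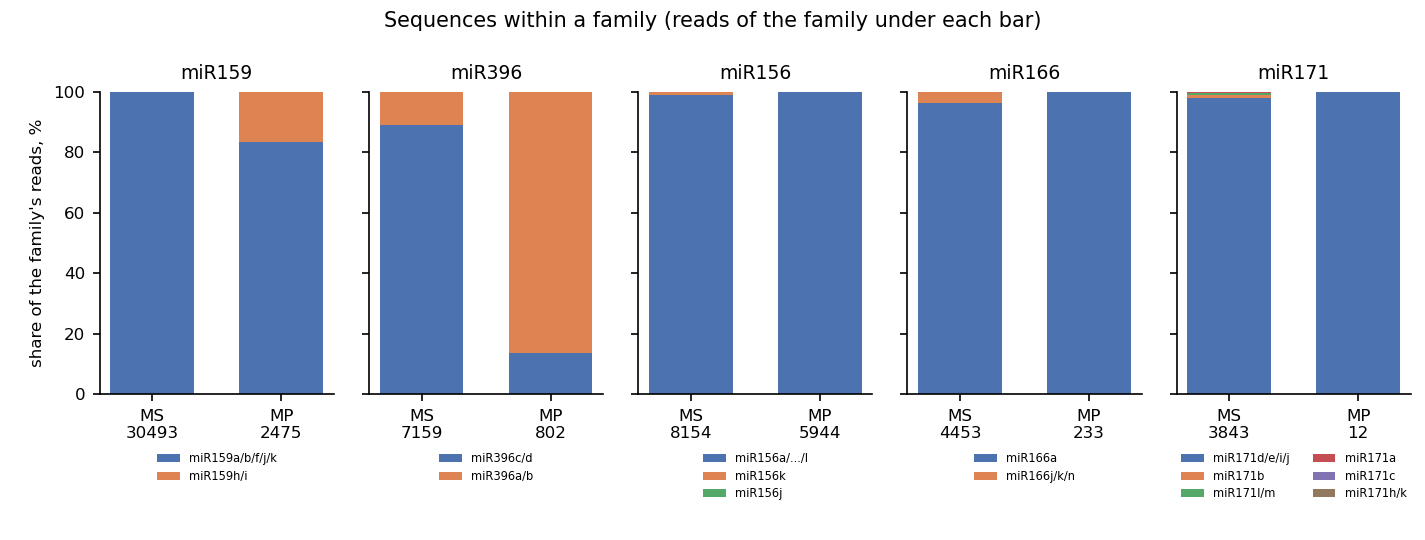
Share of each family's kept reads (vertical axis, percent) taken by each of its sequences in MS (left bar) and MP (right bar) of every family. The kept reads are written under the bar, and those of overlapping sequences with fewer reads are left out. The colours turn over in miR396, where miR396c/d takes 89.1% in MS and 13.6% in MP, and in miR159, where miR159h/i is too small to see in the MS bar and takes 16.5% of the MP bar.

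The predicted miRNAs differed by length. Most plant miRNAs are 20 to 22 nt long, and 24-nt small RNAs are typical of the pathway that directs DNA methylation. Of all predicted reads, 12.7% were 20 to 21 nt in MS against 60.4% in MP (exact 95% intervals 11.4% to 14.1% and 57.2% to 63.6%). Those of 24 nt were 23.6% in MS (21.97% to 25.4%) against 8.75% in MP (7.02% to 10.7%). These shares lean on single sequences. In MS the 22-nt 11-3p alone held 44.9% of predicted reads and the 24-nt 53-3p held 9.89%. In MP the 21-nt 56-5p held 22.6%. On clean reads the 24-nt class summed to 101 TPM in MS and 22.5 TPM in MP, and the 20 to 21-nt class to 54.4 TPM in MS and 156 TPM in MP. The class of 22 to 23 nt summed to 273 TPM in MS and 79.4 TPM in MP, and without 11-3p to 80.5 TPM and 79.1 TPM. Of the 42 predicted 24-nt sequences in the table, 38 were detected in MS and 6 in MP. Over all 109 predicted sequences 88 were detected in MS and 58 in MP, and MS was the deeper of these libraries.

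Among the 18 predicted members of 20 to 21 nt, 2 were higher in silk, 9 lower, and 7 did not pass, with a median log2 ratio of -1.10 on clean reads. Over all 46 predicted members 15 were higher and 17 lower. Of the 18, 7 reached the minimum through MP alone and 5 through MS alone. Scaled to known reads, none of the 18 was higher and 15 were lower, beside 2 and 25 of all 46. 56-5p, the most abundant predicted miRNA of pollen with 22.6% of its predicted reads, had 8 reads (1.39 TPM) in MS against 212 reads (58.3 TPM) in MP, 42.1-fold lower in MS (exact 95% interval 20.96 to 98.7). 50-3p had 0 reads in MS and 28 in MP, 14.8-fold lower in MS at the floor of 3 reads (exact 95% lower limit 11.3). 54-3p, 59-3p and 27-5p had 2, 2 and 3 reads in MS against 18, 13 and 19 in MP, and 12-5p had 10 against 56. The sequences higher in MS were 17-5p, with 33 reads against 0, and 44-5p, with 81 against 9, and neither passed on known reads. 43-3p, with 23 reads in MS against 42 in MP, was just past the limit at -1.54.

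Among the 14 of 22 nt, 5 were higher and 6 lower, beside 15 and 17 of all 46 predicted members. Of these 14, 6 reached the minimum through MS alone and 6 through MP alone. 11-3p was by far the most abundant predicted miRNA of silk, with 1112 reads (193 TPM) and 44.9% of the predicted reads there, against 1 read (0.275 TPM) in MP. It was 701-fold higher in MS (exact 95% interval 125 to 27699), with log2 ratios of 9.45 and 6.89 on the 2 scales. 18-3p had 68 reads in MS against 4 in MP, 53-5p had 51 against 6, and 33-5p and 40-5p had 29 and 18 against 0. In the other direction 21-5p had 0 reads in MS against 41 in MP, 51-3p had 1 against 12, 57-5p had 3 against 16, 57-3p had 9 against 42, 49-3p had 6 against 29 and 36-3p had 0 against 14. 55-5p ranked high in both tissues, with 228 reads (39.5 TPM) in MS against 79 reads (21.7 TPM) in MP. Its log2 ratio of 0.86 was within the limits on clean reads and turned to -1.70 on known reads, where it was lower in MS.

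Beside 15 higher and 17 lower of all 46 predicted members, 8 of the 14 of 24 nt were higher in silk and 2 lower. Of these 14, 10 had 0 reads in pollen. As 12 of them reached the minimum through MS alone, this split is partly set by how they were taken. 53-3p had 245 reads (42.4 TPM) in MS against 7 reads (1.92 TPM) in MP, 22.1-fold higher in MS (exact 95% interval 10.5 to 55.4), and passed on both scales. 37-3p, 34-3p, 9-3p and 38a-3p had 48, 31, 28 and 26 reads in MS and 0 in MP. Their bounds on known reads lay between -0.11 and 0.77, so none of them passed there. The exceptions were 8-3p, with 3 reads in MS against 37 in MP, 19.6-fold lower in MS (6.198 to 99.2), and 52-5p, with 4 against 22. Both stayed lower on known reads, at -6.85 and -5.69.

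**Figure D4:**
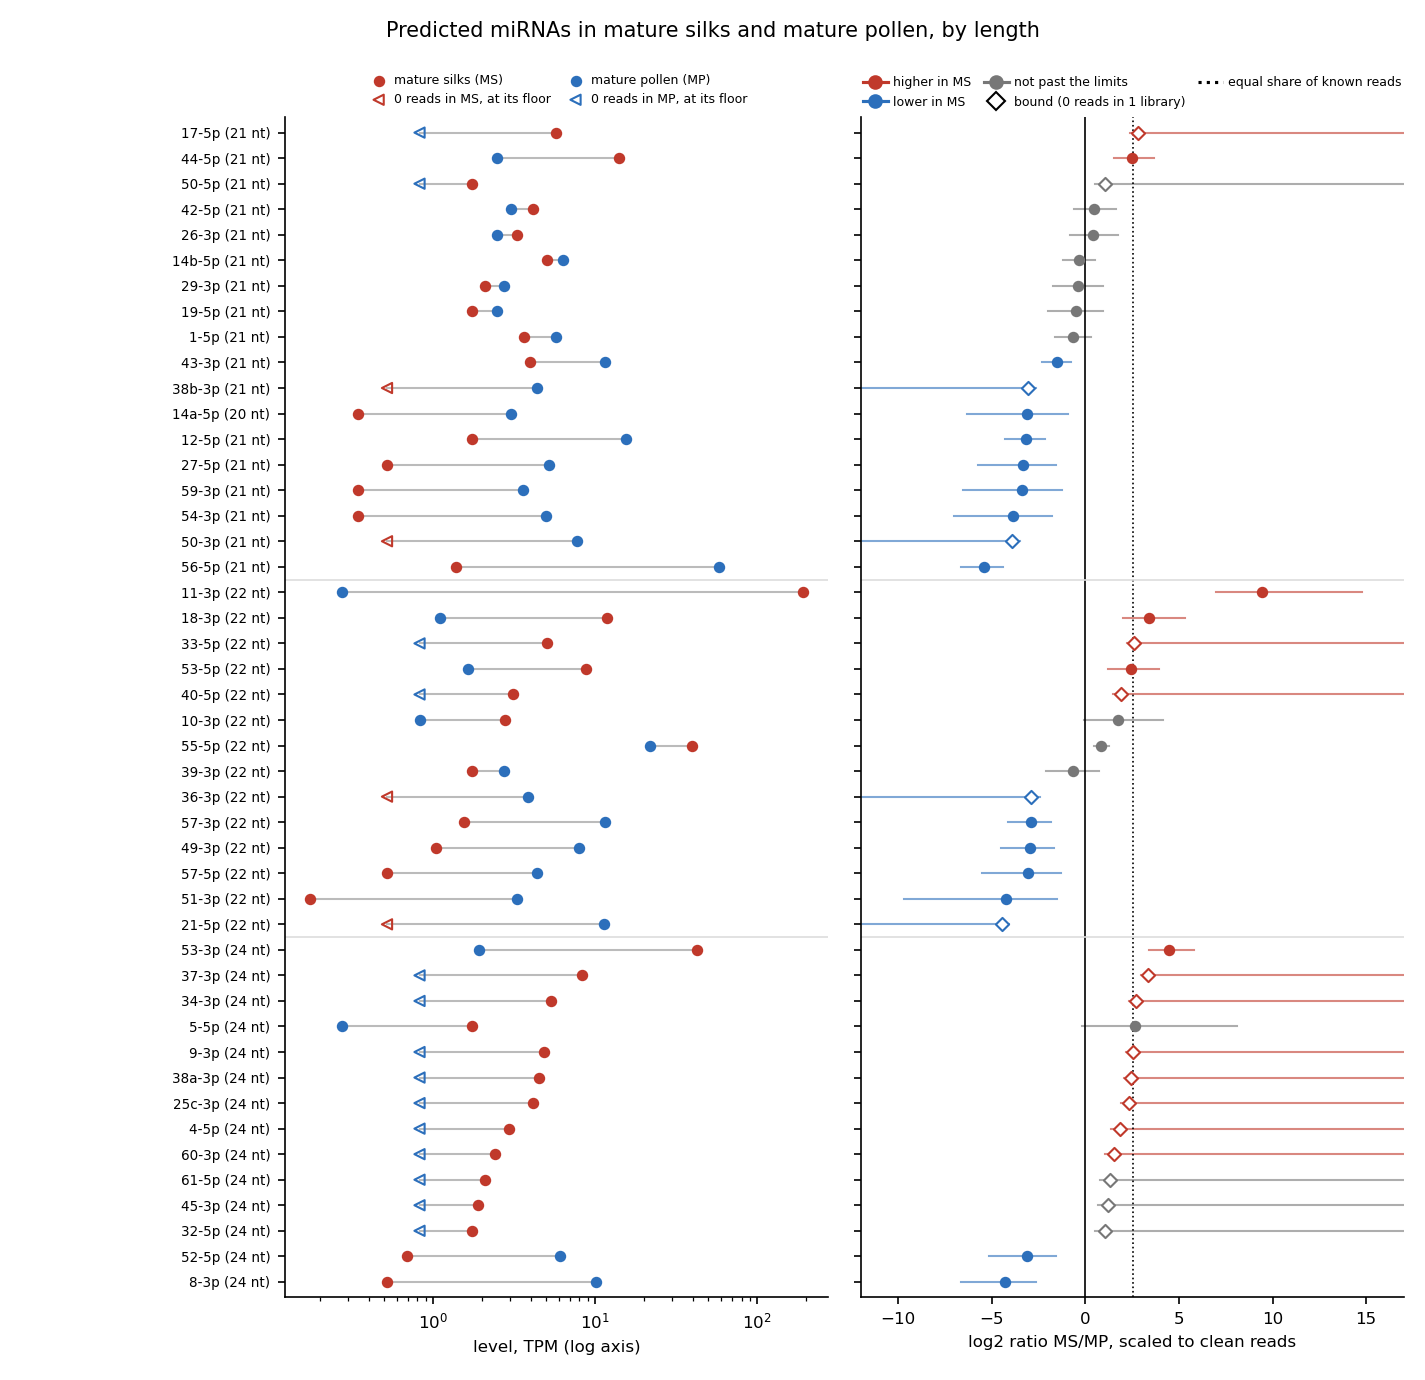
Levels and ratios of the 46 predicted miRNAs, named by hairpin and arm, in blocks of 20 to 21 nt, 22 nt and 24 nt from top to bottom. The left panel gives the TPM on a log axis in MS (red) and MP (blue), with open triangles at the floor of 3 reads for a count of 0. The right panel gives the log2 ratio of MS to MP on clean reads with its exact 95% interval. A dotted line at 2.56 marks where the log2 ratio scaled to known reads is 0. Blue calls fill the lower part of the upper blocks (9 and 6 sequences), while the 24-nt block has 8 red calls and 2 blue ones.

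The arm that a hairpin gives was compared for the 8 hairpins with at least 10 reads of both arms together in each library, of 36 with both arms in the table. Hairpin 50 gave its arms in opposite tissues. Its 5p arm had 10 reads in MS and 0 in MP, and its 3p arm had 0 reads in MS and 28 in MP (Fisher's exact test, adjusted p = 1.69e-08). The 5p share was thus 100% in MS (exact 95% interval 69.2% to 100%) and 0% in MP (0% to 12.3%). In the other 7 hairpins the shift did not pass. The nearest were hairpin 53, with 51 reads of the 5p and 245 of the 3p arm in MS against 6 and 7 in MP, and hairpin 29, with 0 of 12 reads in MS against 7 of 17 in MP (adjusted p = 0.0614 for both in Fisher's exact test).

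The members shared some features that the minimum of reads did not use. Of the 40 known sequences 33 began with T, against 11 of the 46 predicted ones, of which 25 began with A. Of the 15 predicted sequences higher in MS 10 began with A, and of the 17 lower ones 7 began with A and 6 with T. First base was not separated from length, and 8 of the 15 higher ones were 24 nt long. A seed was shared by 12 groups of members. In the miR396 and miR156 groups, for example, sequences with 1 seed were called differently, with miR396c/d and miR156k higher on clean reads and their relatives within the limits. The predicted 44-5p carried the seed of miR159a/b/f/j/k, and both were higher in MS on clean reads, at 2.50 and 3.21, but 44-5p was at -0.058 on known reads. The predicted 33-5p carried the seed of the 4 miR169 members. It was higher on clean reads, as were 3 of the 4.

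The deposited table lists target genes that the authors predicted from sequence alone for 52 of the 86 members, 39 known and 13 predicted, on 202 genes. Relatives shared few or most of their genes, whether or not their ratios were alike. miR396c/d has 18 genes listed and miR396a/b has 1, with 0 shared. miR159a/b/f/j/k has 11 and miR159h/i has 6, with 4 shared. miR156k and miR156a-i/l have 24 and 25, with 23 shared, and miR393b and miR393a/c, both higher in MS, have 3 and 0. The 32 known sequences higher in MS on clean reads cover 158 genes through the 31 that have sites, and the 17 predicted sequences lower in MS cover 15 genes through 5. 33-5p shares both of its 2 genes with miR169p. miR827, miR162 and miR168a/b have 1 gene each.

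The same sequences were then read in pollinated silks and germinated pollen, libraries that did not decide which sequences were taken. Of the 86 members 79 had at least 10 reads in PS or GP. Over all 112 sequences with that minimum 56.2% were higher in PS and 31.2% lower on clean reads, and 27.7% higher and 43.8% lower on known reads. Of the 47 members higher in MS, 44 were also higher in PS than in GP, none was lower and 3 did not pass. Of the 18 lower in MS, 16 were also lower in PS and 2 were under the minimum. On clean reads no member was past the limits in opposite directions in the 2 pairs. On known reads miR393b was, with a log2 ratio of 3.97 for MS to MP and -2.74 for PS to GP. The PS library holds silk and pollen together, and it was not a replicate of MS.

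Some members differed in size or call between the pairs. miR393b had 147 reads in MS against 1 in MP, but 7 reads in PS against 11 in GP, a log2 ratio of 0.37 after 6.53. miR390a/b had 459 reads in PS against 347 in GP (log2 ratio 1.43), and 53-5p had 30 against 36, so these were the members higher in MS that did not pass. miR171b, with 42 reads in MS and 0 in MP, had 6126 reads in PS against 2 in GP (log2 ratio 12.60). miR159h/i stood farther apart after pollination, with 7 reads in PS against 3696 in GP (log2 ratio -8.02). miR396a/b, within the limits before pollination, had 714 reads in PS against 382 in GP and was higher (1.93). On the other side 29-3p had 5 reads in PS against 170 in GP, 19-5p had 0 against 40 and 1-5p had 12 against 69, and all 3 were lower there after passing no limit in MS against MP on clean reads. None of these changes between pairs was tested.

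**Figure D5:**
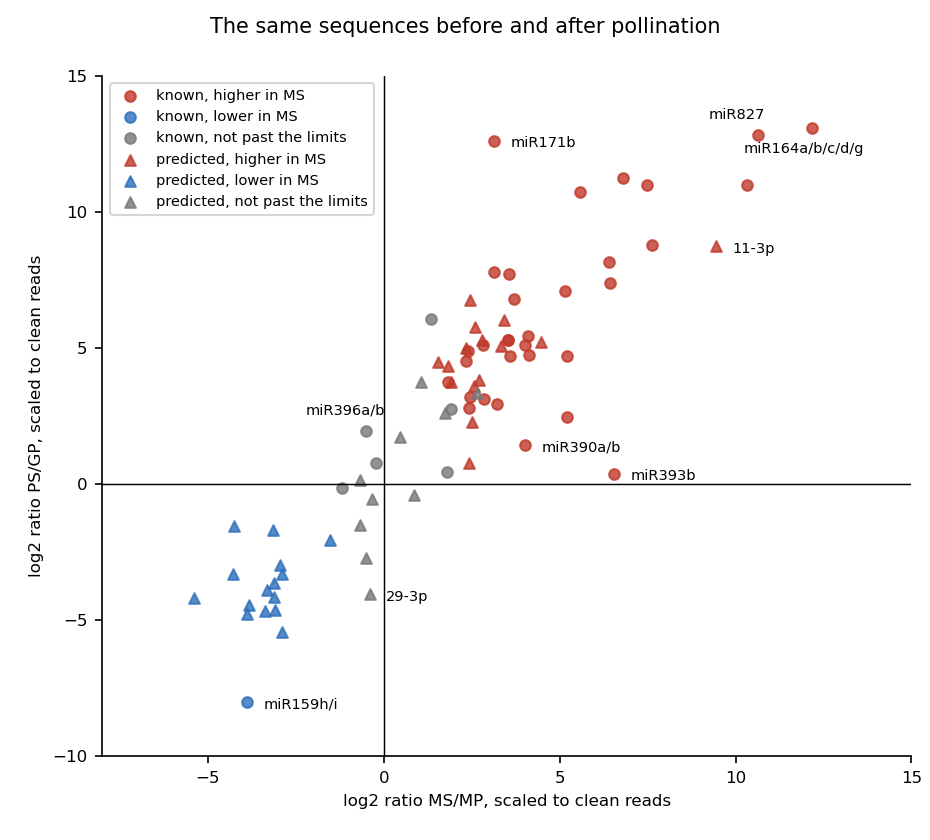
Log2 ratio of MS to MP (horizontal axis) and of PS to GP (vertical axis), both on clean reads, for the 79 members with at least 10 reads in PS or GP, with circles for known and triangles for predicted miRNAs, coloured by the call in MS against MP; a ratio with 0 reads in 1 library is drawn at its bound. Red points lie above 0 on both axes and blue points below 0 on both, with miR393b at 6.53 and 0.37 and miR159h/i at -3.88 and -8.02.

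The minimum of 10 reads left out sequences much like those just inside it. Just inside, with 10 reads in the higher library, were 19-5p (10 reads in MS against 9 in MP), 39-3p (10 against 10), 5-5p (10 against 1), 32-5p and 50-5p (10 against 0). Just outside were miR399f and 24-5p (9 against 0) and 2-5p (6 against 9). Of the 95 sequences left out, 19 had no read in either library.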

How the data were processed

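The authors gel-purified small RNA, sequenced it on a Solexa instrument, mapped clean reads to maize B73 with SOAP, matched them to miRBase and predicted further miRNAs from hairpins. The deposited table gives read counts per name, with variants of up to 2 nt in length added by the authors. Its deposited TPM values are the authors' counts per 1000000 clean reads. Its p-value columns hold the authors' chi-square tests and were not used, and the number of per-sample value columns not used was 0. Clean reads were derived from count and TPM.

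Names that share a sequence were collapsed to the name with the most reads over the 4 libraries. Fisher's exact test, Benjamini-Hochberg adjustment and exact (Clopper-Pearson) 95% intervals were computed with scipy 1.17.1. A count of 0 was set to 3 reads, and counts of 3 or fewer in both libraries gave no ratio. With 1 library per tissue no edgeR or DESeq2 test was fitted. edgeR 4.0.16 gave TMM factors and DESeq2 1.42.0 size factors (median ratio) for the scaling alternatives. In simulated counts for 181 sequences, MS against MP, 99.2% of sequences changed 8-fold in either direction were called, and 0.108% of unchanged ones. The simulation held counting error alone, and only sequences with at least 20 reads in MS and MP together were changed. These rates therefore do not cover variation between libraries, nor changes in sequences with fewer reads. Sequences overlap where they share 18 nt at an offset of up to 2 nt, which 20 of the 86 members do, so reads can be counted more than once. Gene symbols come from RefSeq (Zm-B73-REFERENCE-NAM-5.0), which held 104 of 186 target genes with matching identifiers.

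Known miRNAs are described by family in order of role. Predicted ones are named where they are up to 5 with the largest ratio past the limits per direction and length class, among the 5 most abundant of a library, in a hairpin past the arm test or near the minimum. The predicted 12-5p, 57-3p and 43-3p are among the most abundant ones. 29-3p, 1-5p, 10-3p, 42-5p and 26-3p and the seed pairs were chosen after their values were seen. Members and lists were chosen with earlier results of these data known. Alternatives were other scalings, minima, collapsing rules, tests and limits.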

Additional observations from a re-analysis of the deposited data

How the results depend on the processing

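Scaling to known reads moved the counts and turned the median. On known reads without miR168, 15 sequences were higher in MS and 29 lower, with a median log2 ratio of -0.35, against 17, 29 and -0.23 on known reads and 47, 18 and 2.33 on clean reads. The median ratio gave 23 higher and a median of 0.36, with a count of lower sequences within 1.5 times that on clean reads, and TMM a median of 2.13. Known-read scaling, with and without miR168, turned miR168a/b to -0.14 and -0.26, miR156k to -0.11 and -0.23, 44-5p to -0.058 and -0.18, 53-5p to -0.14 and -0.27, 55-5p to -1.70 and -1.82, 42-5p to -2.10 and -2.23, and 26-3p to -2.15 and -2.28. The median ratio turned 42-5p to -1.52. The shift is the same for every sequence by construction.

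Some other choices changed which sequences were tested. With 1 row per name 110 of 165 were higher, with a median of 3.14. A minimum of 20 reads left 10 lower and a median of 2.84. Minima of 5 reads, 10 reads at equal depth and none gave medians of 1.07, 2.44 and 0.89. Keeping only the most-read sequence of each overlapping group gave 1.92. Adding 1 read to every count, over the same 86 sequences, gave 2.86. A minimum of 10 reads in both libraries, added after seeing the data, gave 11 higher and 3 lower of 23, fewer of each than any scaling, with a median of 0.86. With a minimum of 5 reads, 2 of 14 hairpins passed the arm test, 28 and 50. The chi-square test, limits of 1 and 2, unadjusted p, means over names and, added after seeing the data, adjustment over all 181 sequences kept both counts within 1.5 times.

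No paired analysis was possible because there is 1 library per tissue. Counts under about 10 reads give intervals several log2 units wide, so the size of a ratio against 1 to 4 reads in MP is poorly known. Among members with 1 to 4 reads in MP, the interval of miR160f, miR398a/b, miR528a/b, 5-5p and 10-3p includes 0. Some predicted members with more reads in MP, such as 26-3p and 19-5p, had such intervals too.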
